A study of Mus musculus and Rattus norvegicus with 11 samples.

Results

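The 8 genes described here, Csf1r, Trem2, Tyrobp, Aif1, Adgre1, Lyz2, Cd68 and Ms4a7, form a short list of genes of macrophages and of microglia, the macrophages of the central nervous system. They were taken by symbol from the 31053 genes of the mouse count table, and all 8 were also found among the 32883 genes of the rat table. Single cells of peripheral nerve had been profiled with droplet 3' RNA sequencing, which counts transcript molecules by molecular identifiers (UMIs) near the 3' end. In mice, sciatic nerves and the brachial plexus were digested, myelin was removed and live cells were sorted, whereas rat sciatic nerve cells came from a Percoll gradient without sorting. The groups were 3 samples on the NOD background labelled ICAM-1-1/-NOD (ICAM-1-/-NOD in the series text, called KO-labelled here), 2 NOD control samples, 3 C57BL/6 samples and 2 naive Lewis rat samples. Both NOD groups were presented as models of chronic autoimmune neuritis, and the naive Lewis rats and C57BL/6 mice as healthy. Libraries 2-1 and 2-2 of the controls carry the same number and were summed as NOD control 2. Age, sex and the deleted part of Icam1 are not given in the labels, and the labels do not say that samples came from separate animals, so p-values measure the spread between these samples, which may be technical.

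CSF1R is the receptor for the growth factors CSF1 and IL-34 that most tissue macrophages need to survive. TREM2 is a lipid-sensing surface receptor that signals through the adaptor TYROBP (DAP12), which also serves other receptors of myeloid and natural killer cells. AIF1 (IBA1) is a calcium- and actin-binding protein and ADGRE1 an adhesion-type receptor, both standard stains for macrophages in mouse. LYZ2 is the secreted lysozyme of mouse macrophages and neutrophils, CD68 a glycoprotein of the lysosome membrane, and MS4A7 a membrane protein that in mouse brain marks macrophages of the borders rather than microglia of the parenchyma.

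In the mouse annotation (GRCm38, mm10) all 8 are protein-coding. Trem2 lies at chr17:48346401-48354147 on the plus strand, Aif1 at chr17:35170991-35176068 on the minus strand and Adgre1 at chr17:57358691-57483527 on the plus strand. Tyrobp lies at chr7:30413760-30417585 (plus), Lyz2 at chr10:117277331-117282321 (minus), Cd68 at chr11:69664213-69666153 (minus) and Ms4a7 at chr19:11321039-11336146 (minus).

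Promoter sequences from RefSeq (GRCm38.p6, 250 bases before to 50 after the start, written 5' to 3' on the gene's strand) were shown for the 3 members whose levels differed most between the KO-labelled and NOD control samples below. Capitals mark GGAAGT, a core of sites bound by ETS-family factors such as PU.1, searched on both strands, so ACTTCC in capitals is its reverse complement.
Aif1, chr17:35176003-35176302, minus strand: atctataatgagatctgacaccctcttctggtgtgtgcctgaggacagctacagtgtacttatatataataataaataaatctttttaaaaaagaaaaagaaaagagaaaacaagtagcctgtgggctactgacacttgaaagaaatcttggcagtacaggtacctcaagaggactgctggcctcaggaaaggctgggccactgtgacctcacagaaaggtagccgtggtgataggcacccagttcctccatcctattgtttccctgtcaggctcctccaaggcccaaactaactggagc
Lyz2, chr10:117282223-117282522, minus strand: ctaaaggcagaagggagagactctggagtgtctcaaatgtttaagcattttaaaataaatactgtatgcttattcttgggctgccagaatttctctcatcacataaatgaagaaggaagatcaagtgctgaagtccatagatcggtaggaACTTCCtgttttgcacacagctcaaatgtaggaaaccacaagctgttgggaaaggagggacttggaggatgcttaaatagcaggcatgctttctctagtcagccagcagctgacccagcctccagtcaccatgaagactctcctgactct
Ms4a7, chr19:11336097-11336396, minus strand: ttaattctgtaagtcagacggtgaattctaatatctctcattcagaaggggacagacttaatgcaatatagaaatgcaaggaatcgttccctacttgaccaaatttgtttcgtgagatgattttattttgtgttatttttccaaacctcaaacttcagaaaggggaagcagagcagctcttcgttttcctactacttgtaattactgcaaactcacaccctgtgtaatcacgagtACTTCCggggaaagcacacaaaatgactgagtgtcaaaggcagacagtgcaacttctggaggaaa
The Lyz2 match began 100 bases before the start and the Ms4a7 match 15 bases before it, both on the opposite strand. A second RefSeq promoter of Ms4a7, chr19:11334646-11334945, held no GGAAGT and 3 matches of TATAA, 199, 200 and 40 bases before its start, of which the first pair overlap on opposite strands. Aif1 held no GGAAGT and 3 matches of TATAA, 247, 191 and 186 bases before the start. Of the other member promoters that matched by symbol, Cd68 held GGAAGT 12 bases after the start and Trem2 held neither motif, with 5 of 8 members matched in all. GGAAGT occurred in 23.8% and TATAA in 24.9% of 32851 promoters of 300 bases, so each match is a description of letters, not of a binding site.

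The 9 mouse libraries held 571042 to 6631004 UMIs, with medians of 591 to 1530 UMIs per barcode, and the rat libraries 19074026 and 17958844 UMIs, with medians of 2647 and 2670. Of 36 pairs of mouse libraries 32 shared cell barcodes, at most 15 per pair and 0.833% of the smaller library, and the rat libraries shared 59. Cells carry the authors' type names. In NOD mice the myeloid types were MC and pDC, in C57BL/6 mice MP and MC, and in rat PF4 MC, MHC II APC and mast cells. Names were checked against marker lists: macrophage markers summed to 4890 UMIs per 1000000 UMIs (CPM) in KO-labelled MC, 5615 CPM in NOD control MC and 4064 CPM in C57BL/6 MP. The C57BL/6 cells named MC went against the name. Macrophage markers summed to 312 CPM in them and monocyte genes to 7953, 12790 and 10845 CPM in samples C57BL/6 1, 3 and 4, against 3567 CPM in KO-labelled and 1846 CPM in NOD control MC. Neutrophil genes were high in samples 1 and 3, at 49581 and 37553 CPM, and at 47.1 CPM, with 1 of 10 genes seen, in the 10 MC of sample 4. The name MC thus covers cells with different markers in C57BL/6 and NOD mice. Icam1 transcripts were counted in myeloid cells of the KO-labelled samples at 429, 484 and 523 CPM, against 437 and 240 CPM in the NOD control samples. A 3' tag outside a deleted part does not check the genotype, and the direction of each contrast below rests on the labels.

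Each member was concentrated in the myeloid cells. Csf1r, Tyrobp, Aif1, Adgre1, Lyz2 and Cd68 were higher in myeloid cells than in the other cells in 8 of 8 mouse samples, and Trem2 and Ms4a7 in 7 of 8. In sample C57BL/6 4, with 44 myeloid cells, no UMI of Trem2 or Ms4a7 was counted in those cells. In both rat samples all 8 members were higher in myeloid cells. The cells had been named from their own expression, so these levels are described and not tested.

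How far the members were from zero outside myeloid cells differed between genes. Other cells held Lyz2 at 0.105% to 1.20% of the myeloid CPM of the same mouse sample, Csf1r at 0% to 1.36%, Aif1 at 0% to 1.14% and Cd68 at 0.556% to 4.74%. Tyrobp had the widest range, 0.242% to 8.06%. Its highest non-myeloid type was CD8 in KO-labelled samples, at 20.7% of the MC level, and in NOD control samples, at 11% of the MC level. In C57BL/6 samples it was TC, at 18.3% of the MP level. How many natural killer cells lie under the names CD8 and TC was not examined. In rat the highest non-myeloid type for Tyrobp was BC, at 20.3% of the PF4 MC level with the samples pooled. Rat BC held 170 CPM in sample 1 and 729 CPM in sample 2, against 166 and 179 CPM in rat TC. The pooled value thus rests mostly on sample 2. Over all 8 members the other rat cells as a whole stood at 2.56% to 6.40% of the myeloid level.

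**Figure D1:**
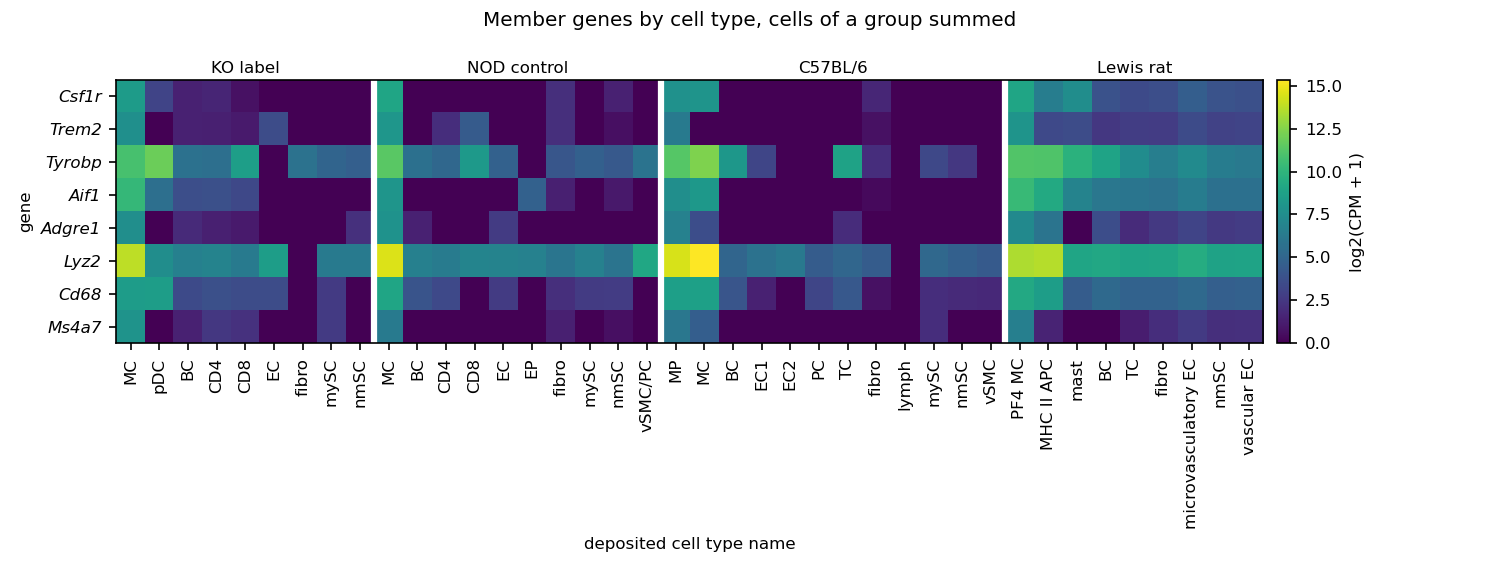
Level of each member in the annotated cell types with at least 20 cells in a group, as log2(CPM + 1) of the UMIs pooled over its samples. The high values of each gene lie in myeloid types. T cell types show Tyrobp. Lyz2 is not particular to T cells in rat, where nonmyeloid types hold it at 454 CPM (nmSC) to 718 CPM (microvasculatory EC). Rat TC lie within that range, at 468 CPM against 173 CPM for Tyrobp.

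Among the myeloid types the plasmacytoid dendritic cells (pDC) kept only a part of the list. In the 46 KO-labelled pDC, Tyrobp stood at 3872 CPM and Cd68 at 378 CPM, while Trem2, Adgre1 and Ms4a7 had 0 UMIs and Csf1r 1 UMI. Lyz2 had 23 UMIs there, or 185 CPM. The 9 NOD control pDC had 44 UMIs of Tyrobp and 6 of Cd68, and 0 of the other 6 members. The pDC of both groups held UMIs of the adaptor gene and none of its partner receptor gene Trem2. The 9 NOD control pDC are too few for 0 UMIs to show that a gene of low level is absent. In the 46 C57BL/6 MC, Lyz2 reached 41425 CPM and Tyrobp 5288 CPM, while Trem2 had 0 UMIs and Adgre1 1 UMI. Csf1r, Aif1 and Cd68 stood in these MC at 110%, 153% and 107% of the MP level.

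Rat PF4 MC and MHC II APC also differed in the list, though not in the same genes throughout. Trem2 stood at 239 and 250 CPM in PF4 MC of the 2 samples, against 7.38 and 11.2 CPM in MHC II APC. Ms4a7 stood at 106 and 92.2 CPM in PF4 MC, against 0.738 and 2.99 CPM in MHC II APC, and Csf1r at 535 and 489 CPM against 90.1 and 87.4 CPM. No member overlapped between the types in these 2 samples, Tyrobp and, in the reverse order, Lyz2 included. The lack of overlap thus does not set these 3 genes apart, and how many of all rat genes separate so was not counted. Tyrobp (2401 and 2269 CPM against 2260 and 2213 CPM) differed little between these types. Lyz2 was lower in PF4 MC, with 11248 and 11128 CPM, than in MHC II APC, with 12995 and 12246 CPM. Aif1, Cd68 and Adgre1 were higher in PF4 MC in both samples, with means of 1314, 621 and 157 CPM, against 637, 374 and 57.6 CPM in MHC II APC. The 37 rat mast cells held Tyrobp at 906 CPM and Csf1r at 181 CPM, with 0 UMIs of Adgre1 and Ms4a7.

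Per cell, the list was only partly sampled. Thinned to 500 UMIs, a cell held UMIs of a mean of 2.34 members in KO-labelled MC, 2.59 in NOD control MC, 2.19 in C57BL/6 MP, 2.79 in rat PF4 MC, 2.01 in MHC II APC and 1.11 in KO-labelled pDC. No member was seen in 5.24% of KO-labelled MC and in 0.957% of NOD control MC. The cells that the authors named nmSC went against a Schwann cell name. In KO-labelled and NOD control nmSC, fibroblast markers summed to 141981 and 131880 CPM, with 8 of 8 seen in both, and Schwann cell markers to 705.2 and 1023 CPM. These cells, which should lack the members' transcripts, held 0.0765 members per cell in KO-labelled samples and 0.0362 in NOD control samples. In rat nmSC the figure was 0.278, with Lyz2 in 18.4% of cells, so single UMIs of Lyz2 do not mark myeloid cells in the rat libraries.

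The first contrast asked whether nerve myeloid cells of KO-labelled NOD mice differed from those of NOD controls. Aif1 and Ms4a7 were higher in the KO-labelled samples, Lyz2, Csf1r, Cd68 and Trem2 were lower, and Tyrobp and Adgre1 did not pass the test. UMIs were summed over MC and pDC of each sample and compared by edgeR's quasi-likelihood test with Benjamini-Hochberg adjustment over 3514 genes. All 8 members were tested and 6 passed, where 16.4% of all tested genes did. Of the members 2 rose, where 8.11% of all genes rose, and 4 fell, where 8.28% fell. The median log2 fold change was -0.66 over the members and 0.04 over all genes.

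Aif1 had the clearest difference. It stood at 1037, 946 and 888 CPM in the KO-labelled samples, against 258 and 240 CPM in the NOD control samples. Every KO-labelled sample lay above both controls, and the 3 were close to each other. The log2 fold change was 1.79 ± 0.22 (SE), with an adjusted p of 5.9e-05. All 13 alternative settings kept the call. In MC alone the KO-labelled samples had 1293, 1192 and 1021 CPM and the NOD control samples 267 and 247 CPM. The share of MC with an Aif1 UMI at 500 UMIs per cell was 40.5% in KO-labelled samples (33.8% to 44.4% per sample) and 13.9% in NOD control samples (9.23% to 16%), with 0 of 183 and 0 of 1849 nmSC.

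Ms4a7 stood at 130, 200 and 247 CPM in the KO-labelled samples, against 56.1 and 83.1 CPM in the NOD control samples. The groups did not overlap, but the KO-labelled samples spread widely. Its log2 fold change was 1.20 ± 0.38 (SE), with an adjusted p of 0.0406. The call held in 6 of 13 alternatives, with adjusted p-values of 0.0104 to 0.155, and was lost without KO-labelled sample 2 or 3 or without either NOD control sample (0.0783 to 0.131). The control value rests on 22 UMIs.

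Lyz2 moved the other way. It stood at 12695, 9935 and 12032 CPM in the KO-labelled samples, against 26737 and 21321 CPM in the NOD control samples. All 3 KO-labelled samples lay below both controls. The log2 fold change was -1.21 ± 0.18 (SE), with an adjusted p of 0.00024. The call held in 12 of 13 alternatives and was lost with the KO-labelled samples summed as 1 sample (adjusted p = 0.173). At 500 UMIs per cell, 71.4% of KO-labelled MC had a Lyz2 UMI and 97.6% of NOD control MC, beside 5.46% of nmSC in KO-labelled and 2.43% of nmSC in NOD control samples. Without thinning the shares of MC were 81.0% and 99.1%, at median depths per sample of 2202 to 2870 UMIs in KO-labelled MC and 910 and 1139 UMIs in NOD control MC.

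Lyz1 is a near-identical neighbour of Lyz2, and how shared reads were assigned is not given in the sources used here. Lyz1 took 0.171%, 1.80% and 0.0395% of the UMIs of both genes in the KO-labelled samples, and 17.3% and 6.39% in the NOD control samples. The sum of both was 12716, 10117 and 12037 CPM in the KO-labelled samples, against 32311 and 22778 CPM in the NOD control samples. The summed level was lower in every KO-labelled sample too, and so was the part of Lyz1 in it.

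Csf1r, at chr18:61100598-61132149 on the plus strand, had 369, 200 and 257 CPM in the KO-labelled samples and 639 and 445 CPM in the NOD control samples. The groups did not overlap, with NOD control 1 the highest. The log2 fold change was -1.10 ± 0.27 (SE), with an adjusted p of 0.011, and the call held in 10 of 13 alternatives. It was lost in MC alone (log2 fold change -0.81, adjusted p = 0.058), without NOD control 1 (adjusted p = 0.0601) and with the KO-labelled samples summed (adjusted p = 0.201).

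Cd68 and Trem2 passed by less. Cd68 stood at 390, 382 and 318 CPM in the KO-labelled samples, against 561 and 513 CPM in the NOD control samples, with no overlap. Its log2 fold change was -0.72 ± 0.21 (SE, adjusted p = 0.030), and the call was lost in each leave-one-out fit, with adjusted p-values of 0.0636 to 0.1. Trem2 stood at 160, 129 and 195 CPM in the KO-labelled samples, against 247 and 264 CPM in the NOD control samples. These groups did not overlap either. The log2 fold change of Trem2 was -0.84 ± 0.27 (SE, adjusted p = 0.0455) and -0.53 in MC alone (adjusted p = 0.20). Each of the pair kept its call in 3 of 13 alternatives, and for Trem2 it was lost without KO-labelled sample 1 or 2 or either NOD control sample (adjusted p-values of 0.0539 to 0.242).

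Tyrobp stood at 2550, 2226 and 2005 CPM in the KO-labelled samples, against 2568 and 2845 CPM in the NOD control samples. The KO-labelled samples all lay below the controls, the nearest by a small margin. Its log2 fold change was -0.43 ± 0.18 (SE, adjusted p = 0.13). In MC alone it was -0.57 with an adjusted p of 0.0423, and without NOD control 1 the adjusted p was 0.0356. Adgre1 stood at 139, 142 and 185 CPM in the KO-labelled samples, against 168 and 235 CPM in the NOD control samples. These groups overlapped, and its log2 fold change was -0.60 ± 0.28 (SE, adjusted p = 0.17). Over the 8 members, the KO-labelled samples lay above both controls for 2, where 30.9% of tested genes did so, and below both for 5, where 17% did so.

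**Figure D2:**
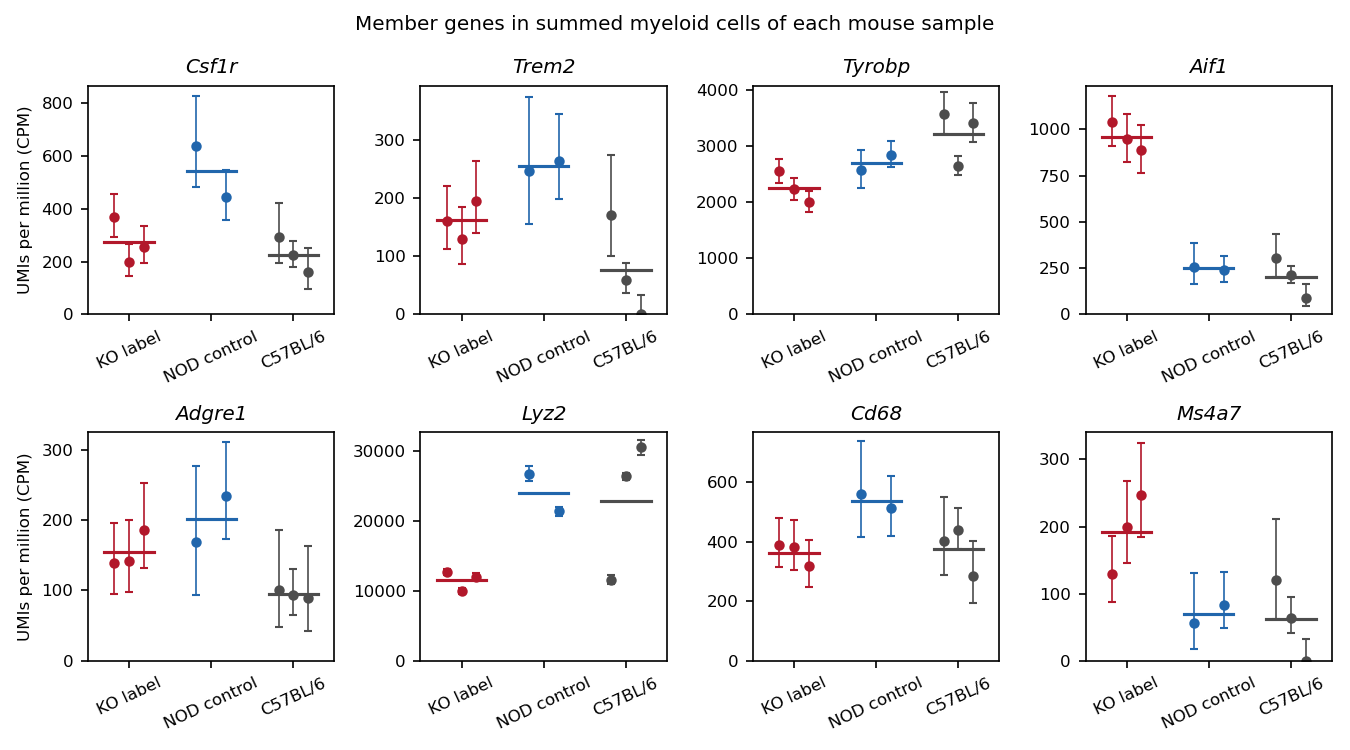
CPM of each member in the myeloid cells of each mouse sample, 1 point per sample, with KO-labelled, NOD control and C57BL/6 samples as groups. Aif1 stands at 888 to 1037 CPM in KO-labelled samples against 240 and 258 CPM in NOD control samples, and Lyz2 shows the opposite order.

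**Figure D3:**
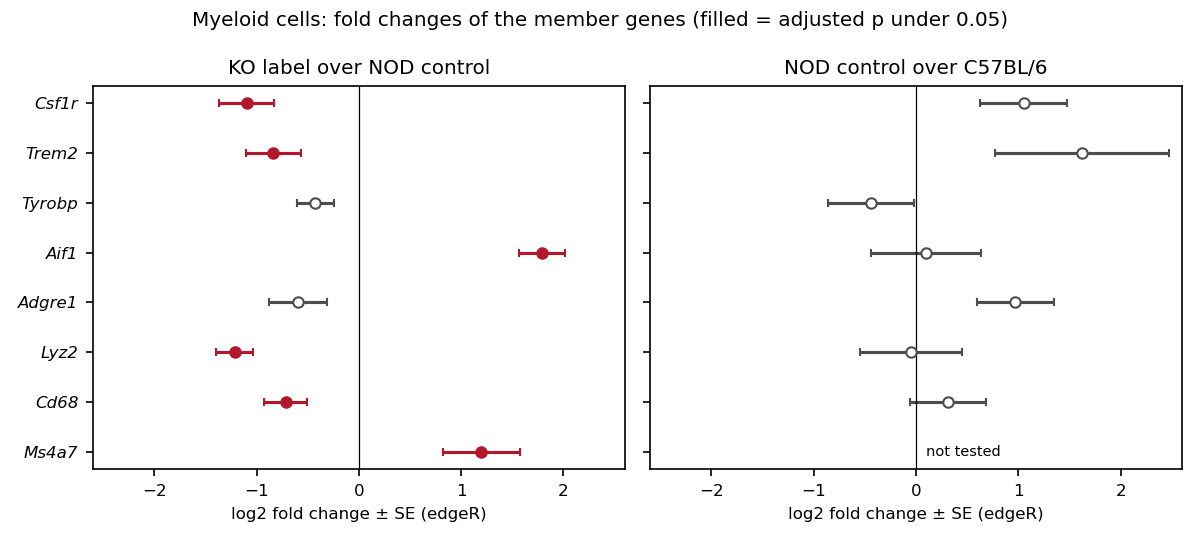
Log2 fold change of the members in myeloid cells with its standard error, for KO-labelled against NOD control samples and for NOD control against C57BL/6 samples. In the first contrast Aif1 and Ms4a7 lie above 0 and the other 6 members below it.

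The make-up of the myeloid cells differed between the groups. The pDC were 18.2%, 22.2% and 13.3% of the myeloid cells in the KO-labelled samples and 5.33% and 3.25% in the NOD control samples. For this reason MC alone is given above for Aif1, Csf1r, Trem2 and Tyrobp. In MC alone Lyz2 stood at 12753 to 15827 CPM in KO-labelled samples, against 21991 and 27695 CPM in NOD control samples. Ms4a7 stood there at 162 to 284 against 58.1 and 85.7 CPM, and Cd68 at 317 to 403 against 499 and 581 CPM. Adgre1 overlapped, at 173 to 213 against 174 and 242 CPM. T cell markers summed to 258 to 542 CPM in myeloid cells of KO-labelled samples, with 8 of 8 genes seen in each, and to 33.6 and 97.8 CPM in NOD control samples, with 1 and 5 of 8 seen. Natural killer markers summed to 156 to 265 CPM against 53.8 and 89.7 CPM. Schwann cell markers were lower, at 69.4 to 133 CPM in KO-labelled samples against 280 and 914 CPM in NOD control samples, and fibroblast markers stood at 494 to 866 CPM against 673 and 2786 CPM. Their part in the members' differences was not tested. The myeloid share of named cells was 5.01% ± 0.0286 in KO-labelled samples and 4.63% ± 1.03 in NOD control samples (SD, n = 3 and 2, two-sided exact permutation p = 0.7, where 0.1 is the smallest this design allows).

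Within MC the members did not move as a block. The cells were divided, after the data had been seen, by whether a cell thinned to 500 UMIs held a UMI of C1qa, C1qb or C1qc, which encode the complement component of many resident macrophages. Such cells made up 24.3% to 35.1% of KO-labelled MC (66 of 210 cells) and 54.9% and 55.4% of NOD control MC (115 of 209 cells). This division is described without a test.

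Ms4a7 sat almost wholly, and Trem2 mostly, in the C1q-positive cells in both groups. Ms4a7 had 33 UMIs in C1q-positive and 1 UMI in C1q-negative MC of KO-labelled samples, and 12 UMIs and 1 UMI in those of NOD control samples. In C1q-positive cells that was 1000 CPM in KO-labelled samples (364 to 1481 CPM per sample) and 209 CPM in NOD control samples (167 and 228 CPM). Trem2 stood at 606 CPM in KO-labelled and 470 CPM in NOD control C1q-positive MC, and at 69.4 and 85.1 CPM in the C1q-negative MC of these groups. Within C1q-positive cells the pooled Trem2 level was higher in the KO-labelled samples, and the per-sample ranges overlapped.

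Aif1 was higher on both sides of the division. It stood at 1606 CPM in KO-labelled and 400 CPM in NOD control C1q-positive MC, and at 1056 and 191 CPM in C1q-negative MC, with no overlap of samples on either side. For Csf1r the groups separated in C1q-positive cells, with 364 CPM in KO-labelled and 991 CPM in NOD control MC (222 to 471 CPM against 633 and 1778 CPM per sample). In C1q-negative cells Csf1r stood at 278 CPM in KO-labelled and 298 CPM in NOD control MC, with overlapping samples. Lyz2 showed the reverse. It stood at 14542 CPM in KO-labelled and 25149 CPM in NOD control C1q-negative MC, without overlap, and at 18333 and 22017 CPM in C1q-positive MC, with overlap. How many of all genes separate in the divided MC was not counted. In the undivided myeloid cells the KO-labelled samples lay above both controls for 30.9% of tested genes and below both for 17%.

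**Figure D4:**
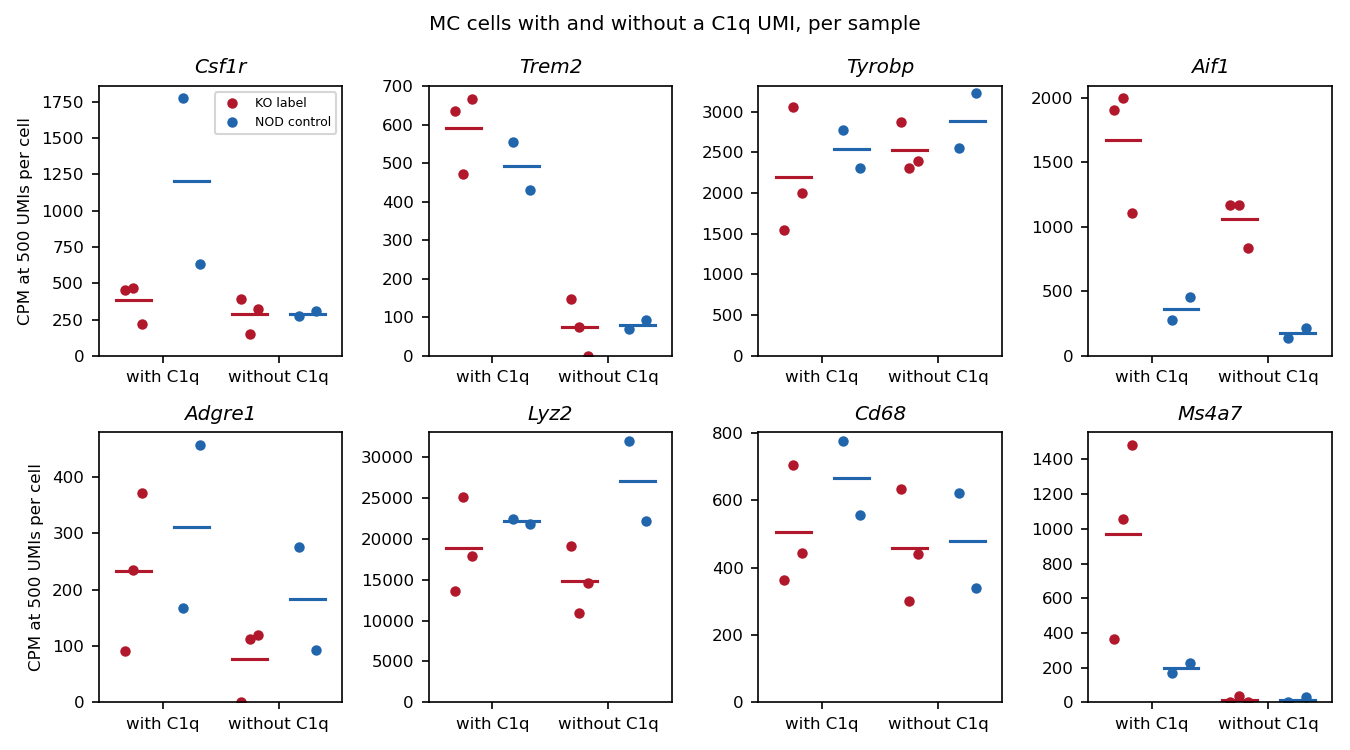
CPM of each member in MC with and without a C1q UMI at 500 UMIs per cell, for KO-labelled and NOD control samples. Ms4a7 and Trem2 are higher in cells with a C1q UMI, and Aif1 is higher in KO-labelled cells of both kinds.

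The same division in other groups gave the same place for Trem2 and Ms4a7. In C57BL/6 MP, 20 UMIs of Trem2 and 14 of Ms4a7 lay in the 119 C1q-positive cells and 0 of either in the 108 C1q-negative cells. Rat PF4 MC were 94.2% and 96.2% C1q-positive, and MHC II APC 16.5% and 18.2%. In the C1q-positive MHC II APC, Trem2 had 1 UMI in 138 cells and Ms4a7 0, and in the C1q-negative ones Trem2 had 1 UMI in 660 cells and Ms4a7 0. These counts are too few to place either gene in that rat type.

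Genes around each member were followed from lists that had been written with earlier results of these data known. Among ligands of CSF1R and transcription factors of mononuclear phagocytes, 8 of 10 genes were tested in myeloid cells. Of these 1 rose and 3 fell, or 50% where 16.4% of all tested genes passed, with a median log2 fold change of -0.57. Irf8, a factor of monocytes and dendritic cells, averaged 941 CPM in KO-labelled and 328 CPM in NOD control samples (log2 fold change 1.37 ± 0.23, SE, adjusted p = 0.00074). Spi1, which encodes PU.1, averaged 360 and 411 CPM (adjusted p = 0.33) and Cebpb 1881 and 1265 CPM (adjusted p = 0.57) in the same order of groups. The 3 that fell, named after their values were seen, were Maf, Zeb2 and Klf4, at -1.91, -0.73 and -1.12. The number of falls was 0 to 3 over the alternatives. Without 1 sample the call was lost for Zeb2 whichever was left out, and for Maf without NOD control 2. For Klf4 it was lost without KO-labelled sample 2 or NOD control 1, while Irf8 kept its call in 13 of 13 alternatives. Zeb2 also lost its call in MC alone (-0.57, adjusted p = 0.127). The ligand Csf1 had 11 UMIs in KO-labelled and 0 in NOD control myeloid cells and was not tested.

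Of receptors that pair with TYROBP and its kinase pathway, 8 of 13 were tested, 1 rose and 0 fell, with a median of 0.32. The share called, 12.5%, was under the 16.4% of all tested genes. Trem1, a receptor of neutrophils and monocytes, had 39 UMIs in KO-labelled and 2 UMIs in NOD control samples, a ratio of rates of 8.60 (95% exact interval 2.23 to 73.5, adjusted p = 0.0404 in edgeR). Its call held in 5 of 10 alternatives and was lost without either NOD control sample. Siglech, a pDC receptor, averaged 191 CPM in KO-labelled and 74.2 CPM in NOD control samples (adjusted p = 0.0558), in sums that include pDC. In MC alone the order was reversed, with 9.13 CPM in KO-labelled and 30.0 CPM in NOD control samples, and Siglech was not tested. Hcst (adjusted p = 0.98) and Clec5a (adjusted p = 0.46) did not pass.

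Lipid-associated genes, many of which depend on Trem2 in mouse microglia, had 10 of 16 tested. Of these 0 rose and 3 fell, or 30% where 16.4% of all tested genes passed, with a median of -0.07. Lpl, lipoprotein lipase, averaged 29.0 CPM in KO-labelled and 403 CPM in NOD control samples, with a log2 fold change of -3.79 ± 0.48 (SE, adjusted p = 7.1e-05). The tetraspanin gene Cd9 changed by -0.88 ± 0.25 (SE, adjusted p = 0.0226), a call that held in 5 of 13 alternatives. It was lost without NOD control 2 or any of the KO-labelled samples, and in MC alone (-0.57, adjusted p = 0.145). Apoe, at 9411 CPM in KO-labelled and 9964 CPM in NOD control samples (adjusted p = 0.46), and Spp1 (adjusted p = 0.48) did not pass. Cd63, named after its value was seen, changed by -1.5.

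The resident macrophage list had the lowest median of these lists. Of its 14 tested genes 9 fell and 1 rose, or 71.4% where 16.4% of all tested genes passed, with a median of -2.67. Mrc1, the mannose receptor, averaged 24.2 CPM in KO-labelled and 217 CPM in NOD control samples (log2 fold change -3.23 ± 0.38, SE, adjusted p = 3.5e-05). Cd163, a haemoglobin scavenger receptor, averaged 18.6 and 182 CPM (-3.31 ± 0.58, adjusted p = 0.00103) and Folr2 6.20 and 229 CPM (-5.22 ± 0.53, adjusted p = 1.2e-05) in these groups. Lyve1 had 2 UMIs in KO-labelled and 44 in NOD control samples, a ratio of 0.0200 (95% exact interval 0.00235 to 0.0768). Named after its value was seen, Pf4 averaged 33.2 and 1454 CPM. The gene that rose was Fcgr1, an immunoglobulin receptor gene, by 1.24. The list's count of falls ranged from 8 to 10 over the alternatives.

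Monocyte genes had 8 of 12 tested. Of these 3 rose and 1 fell, or 50% where 16.4% of all tested genes passed, with a median of 0.67. Ly6c2 averaged 388 CPM in KO-labelled and 25.2 CPM in NOD control samples (3.49 ± 0.48, adjusted p = 0.00011) and Plac8 2254 and 543 CPM (1.81 ± 0.29, adjusted p = 0.00053). These sums include pDC, whose share differed between the groups and in which monocyte genes summed to 5190 CPM in KO-labelled and 5906 CPM in NOD control samples. In MC alone Ly6c2 averaged 322 CPM in KO-labelled and 13.4 CPM in NOD control samples (4.34 ± 0.55, SE, adjusted p = 6.4e-05) and Plac8 1981 and 446 CPM (1.94 ± 0.32, SE, adjusted p = 0.00054), and 4 genes of the list rose and 1 fell. Fn1 fell in the myeloid cells, with averages of 75.7 CPM in KO-labelled and 395 CPM in NOD control samples (adjusted p = 2.3e-05), and the chemokine receptor gene Ccr2 did not pass (adjusted p = 0.73). Of conventional dendritic cell genes 8 of 12 were tested, 3 rose and 0 fell, with a median of 0.37. That was 37.5% called, and 33.3% for the neutrophil genes below, where 16.4% of all tested genes passed. In MC alone 7 dendritic cell genes were tested, Flt3 not among them, and 2 rose and 0 fell, with a median of -0.0166. In MC and pDC together Flt3 rose by 1.77 ± 0.57 (SE, adjusted p = 0.045). The Flt3 call was lost without KO-labelled sample 1 or either NOD control sample. Ccr7, a receptor for migration to lymph nodes, had 59 and 2 UMIs, a ratio of 13 (95% exact interval 3.45 to 109.9), with the edgeR call lost without either NOD control sample, while Cd209a and Clec10a did not pass. Of neutrophil genes 3 of 10 were tested and 1, Retnlg, fell (-1.54, adjusted p = 0.0234), with the call lost in MC alone and without KO-labelled sample 2 or NOD control 1.

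Of lysosomal and phagocytic genes, the kind Cd68 belongs to, 14 were tested, 2 rose and 1 fell, with a median of 0.15. The share called, 21.4%, was near the 16.4% of all tested genes. Lamp1, Lamp2, Ctsb and Ctsd, for lysosome membrane proteins and proteases, had adjusted p-values of 0.48, 0.68, 0.63 and 0.77. Among those that changed, named here after their values were seen, were Ctss at 1.41 and Hexa at -1.05. Of the Ms4a family 7 of 11 were tested, and 4 rose and 0 fell, with a median of 1.20, Ms4a7 included. That was 57.1% called, where 16.4% of all tested genes passed. Ms4a4c averaged 578 CPM in KO-labelled and 111 CPM in NOD control samples (2.13 ± 0.28, adjusted p = 8.5e-05). Ms4a6b and Ms4a6c, at 0.73 and 0.68, had adjusted p-values of 0.104 and 0.0941. Ms4a4b, which T cells also express, had 49 UMIs and 1 UMI, a ratio of 21.6 (95% exact interval 3.70 to 870.6), with the edgeR call lost without NOD control 2. The number of rises in this family was 2 to 6 over the alternatives.

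**Figure D5:**
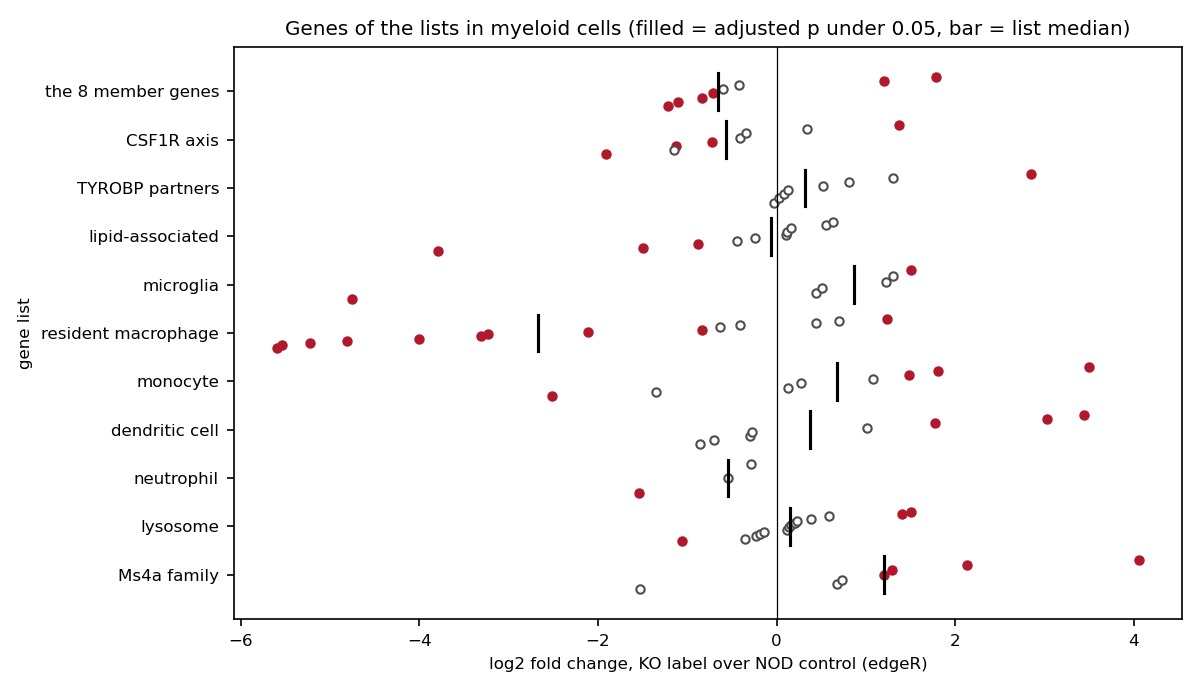
Log2 fold change in myeloid cells, KO-labelled against NOD control samples, of each tested gene of the lists around the members, 1 point per gene. The resident macrophage list has its median at -2.67, while the medians of the lysosomal and lipid-associated lists lie near the median of all genes, 0.04.

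Of homeostatic microglia genes 6 of 12 were tested, with 1 rise and 1 fall and a median of 0.87. That was 33.3% called, where 16.4% of all tested genes passed. The gene that fell, Fcrls, averaged 30.4 CPM in KO-labelled and 765 CPM in NOD control samples (log2 fold change -4.75 ± 0.42, SE, adjusted p = 4.0e-06). Cx3cr1, the fractalkine receptor gene, and Olfml3 did not pass (adjusted p = 0.43 and 0.55). Tmem119, a microglia marker that the filter on low counts left untested and that is named after its values were seen, had 8, 7 and 23 UMIs in MC of the KO-labelled samples, in 5, 6 and 11 cells. It had 0 UMIs in the 71 and 149 MC of the NOD control samples. Its pooled rate in KO-labelled myeloid cells was 5.59-fold that of a floor of 3 counts over the NOD control cells (exact 95% lower limit of the ratio 4.33). KO-labelled sample 3 held most of the Tmem119 UMIs, and without it the rate was 3.22-fold that floor. In C57BL/6 MP it had 2 UMIs.

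The second contrast set NOD control against C57BL/6 myeloid cells. None of the 7 members tested passed edgeR's test, where 1.3% of 1687 genes did (22 called, and 170 at an unadjusted p under 0.05). The C57BL/6 myeloid set holds MP with MC that were high in monocyte genes and, in samples 1 and 3, in neutrophil genes, and its samples spread widely. Csf1r had 639 and 445 CPM in the NOD control samples, against 293, 224 and 160 CPM in the C57BL/6 samples (log2 fold change 1.05 ± 0.42, SE, adjusted p = 0.44). Trem2 had 247 and 264 CPM in the NOD control samples, against 171, 58.7 and 0 CPM in the C57BL/6 samples (1.62 ± 0.86, SE, adjusted p = 0.64). Both genes had NOD control samples above every C57BL/6 sample, as did Adgre1 and Cd68, a pattern that 19.3% of tested genes had.

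Adgre1 had 168 and 235 CPM in the NOD control samples, against 101, 93.4 and 88.8 CPM in the C57BL/6 samples (0.97 ± 0.38, SE, adjusted p = 0.40). Cd68 changed by 0.31 ± 0.37 (SE, adjusted p = 0.88). Lyz2 had 26737 and 21321 CPM in the NOD control samples, against 11579, 26319 and 30460 CPM in the C57BL/6 samples, a log2 fold change of -0.05 ± 0.50 (SE). For Aif1 the NOD control samples, at 258 and 240 CPM, lay within the C57BL/6 values of 303, 211 and 88.8 CPM. Tyrobp was 2568 and 2845 CPM in NOD control samples and 3571, 2646 and 3408 CPM in the C57BL/6 samples (-0.44 ± 0.42, SE, adjusted p = 0.83). Of the genes around the members Cebpb rose in NOD control samples (3.25 ± 0.60, SE, adjusted p = 0.046), a call that held in 8 of 11 alternatives and was lost with RLE factors and without C57BL/6 3 or NOD control 2. This contrast and the first share the NOD control samples. The myeloid share was 4.63% ± 1.03 in NOD control and 7.61% ± 3.73 in C57BL/6 samples (SD, n = 2 and 3, exact permutation p = 0.5, smallest possible 0.1).

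In lymphoid cells (BC, CD4 and CD8), 4 members had enough counts to be tested between KO-labelled and NOD control samples, and Tyrobp and Aif1 passed, where 19.4% of 8999 genes did. Tyrobp stood at 167, 198 and 136 CPM in the KO-labelled samples, against 70.1 CPM, from 2 UMIs, and 57.4 CPM in the NOD control samples. The KO-labelled samples lay above both controls, as for 34.9% of tested genes, and the log2 fold change was 1.31 ± 0.24 (SE, adjusted p = 6.0e-06). CD8 cells, the lymphoid type with the highest Tyrobp level (394 CPM in KO-labelled and 297 CPM in NOD control samples), were 28.9% to 29.5% of lymphoid cells in KO-labelled samples and 6.12% and 3.8% in NOD control samples. In CD4 cells alone, an alternative added after seeing the data, the log2 fold change was 0.35 ± 0.50 (SE) with an adjusted p of 0.757. Of 9 natural killer markers tested in lymphoid cells, 8 rose in KO-labelled samples and 0 fell, where 19.4% of all tested genes passed. None of BC, CD4 and CD8 is named for natural killer cells, and their part in the Tyrobp difference was not tested.

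Aif1 had 54 UMIs in lymphoid cells of the KO-labelled samples and 0 in those of the NOD control samples. Its pooled KO-labelled rate was 3.58-fold that of a floor of 3 counts over the NOD control group, which is not a lower limit of the ratio. It passed in edgeR (adjusted p = 0.0027, with the call held in 7 of 10 alternatives). Over the KO-labelled samples the 54 UMIs were 11.1 CPM, and CD4, the type with the highest level outside myeloid cells, stood at 1.07% of the MC level. Without NOD control 2 neither gene passed, with adjusted p-values of 0.342 for Tyrobp and 0.683 for Aif1. Lyz2 (98.8 ± 29.4 CPM in KO-labelled and 100.4 ± 6.62 CPM in NOD control samples, SD, adjusted p = 0.60) and Cd68 (adjusted p = 0.70) did not pass. NOD control 1 held only 49 lymphoid cells. In nmSC Lyz2 alone was tested (70.9, 49.7 and 121 CPM in KO-labelled and 7.52 and 101 CPM in NOD control samples, adjusted p = 0.81), where 3.9% of 2101 genes passed. In mySC and EC no member had enough counts to be tested, where 11.4% of 1711 and 2.6% of 538 genes passed.

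Over 64 sums of mouse samples and cell types with at least 20 cells, members correlated with each other at Pearson r of 0.529 (Trem2 and Tyrobp) to 0.916 (Csf1r and Aif1) on log2(CPM + 1). These points share libraries, depth and cell types, so the values describe patterns only. Among 10598 genes, the pattern most like that of Csf1r was that of Ptpro (0.955), then Tbxas1 (0.953) and Clec4b1 (0.949). Ptpro also came first for Lyz2 (0.842, before Ccl6 and Clec4a3) and Cd68 (0.846, before Clec12a and Alox5ap). Aif1 was most like Cd300c2 (0.930), Csf1r and Ptpro, and Adgre1 most like Itgam (0.914), Ccl12 and Fcrls. Trem2 was most like Ccl12 (0.819), Ms4a7 and P2ry6, and Ms4a7 most like Ccl12 (0.884), Clec4e and Igsf6. Tyrobp was most like Bcl2a1b (0.855), Tnfaip8l2 and Ctss.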

How the data were processed

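The values deposited by the authors are whole-number UMI counts, in 1 mouse table and 1 rat table, with a type name for most barcodes. Chromium version 2 chemistry is given per the labels, and Cell Ranger 3.0.2 with the builds mm10 and Rnor_6.0 per the submitters' processing notes. Not given in the sources used here are how cells were named, doublets, free RNA and shared reads handled. The 8 members and all gene lists were chosen with earlier results of these data known. Raw counts were summed per sample and cell class (Python 3.11.15, numpy 2.4.6, scipy 1.17.1, pandas 2.3.3) and divided by the class total to give CPM. Classes with at least 20 cells in each sample entered edgeR 4.0.16 (R 4.3.3) and its quasi-likelihood test, with TMM factors, filterByExpr at a minimum count of 10 and Benjamini-Hochberg adjustment over all tested genes at a threshold of 0.05. The SE of a log2 fold change is its size over the square root of F. Genes named besides the members are the first 4 tested of each list in list order, unless said otherwise, and the 3 genes most like each member. Some genes of the lists are not reported here by name. The likeness used genes with at least 100 UMIs. Intervals are 95% exact Poisson or binomial intervals and, with the floor of 3 counts, cover counting error only. Cells were thinned at random to 500 UMIs for shares of cells with a UMI, and cells below that were left out. Barcodes without a type name entered no comparison. Alternatives were RLE factors, DESeq2 1.42.0, no filter, libraries 2-1 and 2-2 apart, removal of Scrublet doublets (scanpy 1.11.5), each sample left out, the title number as a block, KO-labelled samples summed as 1 and MC or MP alone. Scrublet called 0.214% to 2.23% of barcodes per library, under the share at which such a caller can be relied on in some libraries, so its removal tests little. The edgeR steps were tested on simulated counts.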

Additional observations from a re-analysis of the deposited data

Results flagged for a closer look

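Barcodes without a cell type name, which entered no comparison, also held UMIs of the 8 members. In mouse the 378 such barcodes held the 8 genes at a summed 581.3 CPM (95% exact interval 514 to 655), beside 22950 CPM in named myeloid cells and 146 CPM in the other named cells. In rat the 140 such barcodes held them at 8776 CPM, beside 16163 CPM in named myeloid cells and 697 CPM in the other named cells.

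Tyrobp and Cd68 differed in opposite directions in myeloid and in other cells between KO-labelled and NOD control samples, and this difference was not tested. Outside myeloid cells Tyrobp averaged 150.6 CPM in KO-labelled samples, above both NOD control samples, while its myeloid level lay below both. Outside myeloid cells Cd68 averaged 10.5 CPM in KO-labelled samples, also above both NOD control samples, while its myeloid level lay below both. Within classes Cd68 was not higher under the KO label: pooled over samples it stood at 11.3 CPM in KO-labelled and 12.4 CPM in NOD control lymphoid cells, and at 3.15 CPM (2 UMIs) and 4.87 CPM (16 UMIs) in the other nonmyeloid cells of these groups. Lymphoid cells held 88.5% of the UMIs outside myeloid cells in KO-labelled and 22.8% in NOD control samples. The share of CD8 cells, the type with the most Tyrobp per UMI among the lymphoid cells, also differed between these groups, as given above, and its part in these values was not tested.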

How the results depend on the processing

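Of 104 values of the members in the KO-labelled contrast of myeloid cells over 13 alternatives, 71 kept their direction and side of the threshold, 31 lost the call, 2 gained it and 0 changed direction. The count of genes past the threshold there, 576, was 294 with DESeq2, 331 with the replicate number as a block and 256 with KO-labelled samples summed, and 349 to 501 when 1 sample was left out. In lymphoid cells it was 1743, against 243 with DESeq2, 219 with the block, 167 with KO-labelled samples summed, 744 in CD4 cells alone and 262 to 2524 with 1 sample left out. In nmSC the count was 82, against 175 without the filter, 3 with KO-labelled samples summed and 9 to 348 with 1 sample left out. In mySC it was 195, against 72 with DESeq2, 317 with libraries 2-1 and 2-2 apart, 92 with the block, 121 with KO-labelled samples summed and 50 to 403 with 1 sample left out. In EC it was 14, against 31 without the filter, 32 with the 2 libraries apart and 7 to 37 with 1 sample left out. In the strain contrast it was 22, against 11 with RLE factors, 81 without the filter, 42 with the 2 libraries apart and 2 to 59 with 1 sample left out. The KO-labelled minus NOD control myeloid share, 0.383 percentage points, was -0.31 in MC alone and -0.345 to 1.11 with 1 sample left out, lowest without NOD control 2. Directions also changed where no test passed: in the strain contrast with 1 sample left out, Aif1 ranged from -0.26 (without C57BL/6 4) to 0.52 and Lyz2 from -0.32 to 0.16 (above 0 without C57BL/6 3 or 4 or NOD control 2), and Lyz2 was 0.24 in MC against MP alone. Lymphoid Lyz2 was 0.32 in CD4 cells alone and -0.44 to 0.40 with 1 sample left out (highest without NOD control 2), and nmSC Lyz2 -0.49 (without NOD control 1) to 3.24. The cause was not tested. Same-numbered samples deviated together by correlations of at most 0.112, and not all above 0.1, and the main fits left them unpaired. With 2 control samples, whose deviations mirror each other, low correlations cannot show that same-numbered samples share nothing else. The strain contrast shares a single number and could not be blocked. Where a fit left 1 sample in a group, that sample was assumed to vary like those of the other group.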
